A study of Mus musculus with 4 samples.

Results

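The genes described here are 9 genes used to describe satellite glial cells (SGCs) at rest and after nerve injury, *Apoe*, *Fabp7*, *Gfap*, *Gja1*, *Glul*, *Slc1a3*, *Ednrb*, *Sparc*, and *Gpr37l1*. They were taken by symbol from the 31053 genes of the count matrices, and all 9 were found. Their unique molecular identifier (UMI) counts were read in SGCs and, as a trace, in neurons of 4 scRNA-seq libraries, made of GFP+ cells that were sorted from L4-5 dorsal root ganglia (DRGs) of PirtEGFPf mice on a C57BL/6 background at 7 to 8 weeks of age. The PirtEGFPf allele puts GFP under the *Pirt* gene, which is active in DRG neurons, and was carried by every group, so that the sort was meant to keep neurons and the SGCs are what came through it. The libraries were Male-Sham and Female-Sham, from mice with a sham operation, and Male-CCI and Female-CCI, from mice whose sciatic nerves were loosely tied on both sides (chronic constriction injury, CCI). All were taken at day 7 after surgery, and each was made from 20 DRGs of 5 mice pooled. Male and female littermates had the same operation, so litter and surgery cannot be told apart. For each surgery the 2 replicates were a male and a female library, and a difference between the sexes therefore adds to the spread. Where 4 values follow each other with no library named, the sham libraries come before the CCI libraries and male before female.

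SGCs wrap the cell bodies of sensory neurons in a thin sheath. They take up glutamate and potassium from the space around the neuron, turn glutamate into glutamine, couple to each other through gap junctions, and carry lipids with apolipoprotein E and fatty acid binding proteins. After injury of a peripheral nerve they are known to become reactive, with more of the intermediate filament GFAP and stronger gap junction coupling.

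SGCs were the cells with at least 300 *Apoe* UMIs and 30 *Fabp7* UMIs per 10000 UMIs and at least 1000 genes. This rule found 914 of 23691 cells, with 233 of 5019 cells in Male-Sham and 332 of 8035 in Female-Sham and, after CCI, 158 of 4019 in males and 191 of 6618 in females. These are shares of 4.64%, 4.13%, 3.93%, and 2.89%, with 95% exact binomial intervals of 4.08% to 5.26%, 3.71% to 4.59%, 3.35% to 4.58%, and 2.50% to 3.32%. The shares were set by the sort and by the marker limits as well as by the tissue, so they are given for each library with no test. Between 5 and 8 SGCs in a library lay within 10% above either marker limit, and between 4 and 10 other cells lay within 10% below the limits. Because *Apoe* and *Fabp7* chose these cells, their levels in SGCs are given as a description only. Neurons were the cells with at least 30 UMIs per 10000 of *Tubb3*, *Snap25*, *Uchl1*, and *Stmn2* together, at least 1500 genes, and at most 10% mitochondrial UMIs. This rule gave 3895, 6511, 3302, and 4210 neurons, and it used none of the 9 genes. Of these 4 markers, *Stmn2* and *Tubb3* rose in neurons with CCI (0.90 and 0.89 on the log2 scale) and *Snap25* fell (-0.76), and their part in which cells passed the rule was not tested.

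The median SGC held 3451.5 to 5104 UMIs in a library and the median neuron 32697 to 56554.5 UMIs. All 15 further markers of SGCs and shared glia, among them *Kcnj10* and *Sox10*, had UMIs in the SGCs of every library, and none was called with CCI. The labels give the cell type of every library as neuron, and the SGCs go against that label by their markers. The defining markers of myelinating Schwann cells *Mag*, *Prx*, and *Ncmap* were at 0 to 6.75 CPM there, the UMIs of a gene scaled by all UMIs of the cells summed, and *Pmp2* was at 0, while the summed level of the 9 Schwann cell markers, mostly *Mbp*, was 369 to 426 CPM. The neuron markers in SGCs summed to 2293 and 2162 CPM in the sham libraries and to 1367 and 2422 CPM in the CCI libraries. The 14 immune markers summed to 553, 199, 42.8, and 318 CPM in the SGCs of the sham and CCI libraries, male before female, and *Cd3e* was at 0 in each of them. Between 5 and 9 SGCs of a library also met the neuron rule. The libraries shared between 215 and 513 cell barcodes in pairs, and 2, 0, 1, and 0 of the SGCs had a barcode also found in another library. The automatic threshold of a doublet caller marked 2, 121, 0, and 0 cells, too few in 3 of the 4 libraries to have worked, so doublets were kept.

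The promoters of *Gfap* and *Glul* are shown because in SGCs the level of *Gfap* was higher with CCI and that of *Glul* lower, as given below. Each window runs from 250 bases before to 50 bases after the gene's start in RefSeq (build GRCm38.p6), at chr11:102897151-102897450 on the minus strand for *Gfap* and chr1:153899679-153899978 on the plus strand for *Glul*, and is written 5′ to 3′. Capitals mark a match to a STAT motif (TTCNNNGAA). Matches to an AP-1 motif (TGANTCA), a cyclic AMP response element (TGACGTCA), and a TATA box (TATAAA) were also searched on both strands.
Gfap: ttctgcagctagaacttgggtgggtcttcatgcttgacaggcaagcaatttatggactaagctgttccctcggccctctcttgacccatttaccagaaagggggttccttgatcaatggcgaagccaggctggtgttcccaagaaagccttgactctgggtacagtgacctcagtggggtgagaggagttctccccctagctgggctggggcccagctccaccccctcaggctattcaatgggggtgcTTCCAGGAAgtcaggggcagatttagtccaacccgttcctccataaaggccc
Glul: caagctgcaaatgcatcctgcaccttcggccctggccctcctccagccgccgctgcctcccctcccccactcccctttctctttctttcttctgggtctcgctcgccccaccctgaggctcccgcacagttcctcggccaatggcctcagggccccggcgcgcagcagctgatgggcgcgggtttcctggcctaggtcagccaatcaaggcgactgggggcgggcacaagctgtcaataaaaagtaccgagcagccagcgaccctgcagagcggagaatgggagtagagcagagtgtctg
The *Gfap* window held 1 STAT match, at bases 249 to 257 of the window. None of the 4 motifs was found in the *Glul* window. The STAT motif was present in 8.30% of 32851 promoter windows of this length, the AP-1 motif in 7.81%, the cyclic AMP response element in 1.79%, and the TATA box in 13.6%. Of the other members, *Slc1a3* held the STAT motif, *Gja1* the AP-1 motif, and *Apoe* and *Slc1a3* the TATA box. A match is only a run of letters and no evidence of binding.

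Of the 9 members, *Apoe* and *Fabp7* chose the SGCs and *Gfap* had too few UMIs. Of the other 6, tested in SGCs, only *Glul* passed the test between CCI and sham, and it was lower with CCI. The test was edgeR's quasi-likelihood test on UMIs summed over the SGCs of a library, with Benjamini-Hochberg adjustment over 9221 genes, and a gene was called at an adjusted p under 0.05 and a log2 fold change beyond 0.5. By this rule 196 genes (2.13%) were called, 109 (1.18%) higher and 87 (0.943%) lower with CCI. Without Female-CCI 485 genes were called. The p-values rest on 2 pooled libraries in each group. The test draws each gene's spread toward that of the other genes, so a p-value does not measure the spread between these libraries alone.

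**Figure D1:**
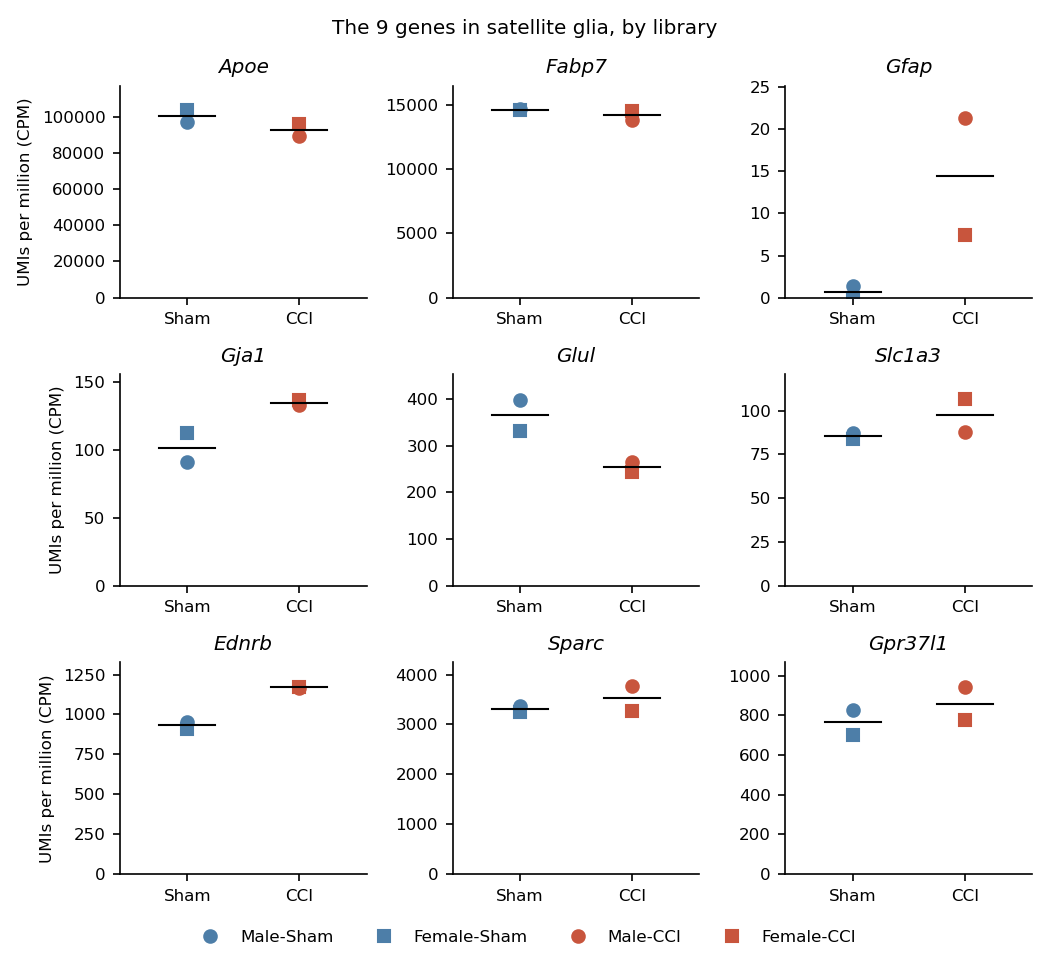
Level of each of the 9 genes in SGCs (y axes, CPM over the library's SGCs, each starting at 0) in sham and CCI libraries. Each point is 1 library, circles are male and squares female, and the short line is the mean of 2 libraries. *Glul* lies at 332 and 396 CPM in sham and at 243 and 265 CPM in CCI, while *Gfap* rises from 2 UMIs in the sham libraries to 26 UMIs in the CCI libraries.

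*Apoe* (chr7:19696109-19699188, minus strand, GRCm38) encodes the main lipid carrier secreted by glia. It took 96878 and 103692 CPM in the SGCs of the male and female sham libraries and 89175 and 95945.5 CPM in those of the CCI libraries, with means of 100285 ± 4818 (SD, n = 2) and 92560 ± 4788 CPM. *Fabp7* (chr10:57784881-57788450, plus strand), a fatty acid binding protein of glia, was at 14664 and 14609 CPM in sham and 13858 and 14513 CPM in CCI. For both genes the CCI libraries lay below the sham libraries by a small margin. Of 9 other lipid carriers and receptors, 1 was called, against 2.13% of all genes. *Abca1*, which loads lipid onto apolipoproteins, was at 90.8 and 89.6 CPM in sham and 129 and 171 CPM in CCI (log2 fold change 0.72, SE 0.16, adjusted p = 0.0146). In neurons *Abca1* rose too, from 22.0 and 25.8 CPM to 127 and 125 CPM (2.45 on the log2 scale).

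*Gfap* (chr11:102887336-102900912, minus strand), the filament protein most used as a sign of reactive glia, was found as 2 and 0 UMIs in the SGCs of Male-Sham and Female-Sham and as 19 and 7 UMIs in those of Male-CCI and Female-CCI. These are levels of 1.36, 0, 21.4, and 7.47 CPM, where 0 UMIs in Female-Sham allowed a level of up to 2.13 CPM. Both CCI libraries were above both sham libraries. Over the libraries of each surgery the rate was 20.5 times as high with CCI, with an exact 95% interval of 5.14 to 178.3 that covers counting error only. The ratio was 15.8 in males, with an interval of 3.81 to 140, and in females, with 7 UMIs against 0, the exact interval of the ratio began at 2.16. The female CCI level was 3.50 times that of 3 UMIs in the sham library, a ratio that leaves out the counting error of the 7 UMIs. The UMIs came from 2, 0, 13, and 6 cells and no cell held more than 3 of them. A *Gfap* UMI was found in 0.858%, 0%, 8.23%, and 3.14% of SGCs. With every cell cut down at random to 2000 UMIs, and 1 to 8 shallower cells dropped per library, the shares were 0.437%, 0%, 3.82%, and 0.526%. The thinned share of Female-CCI, 1 of 190 cells, could not be told from that of Male-Sham, 1 of 229 cells. The count was too low for the filter of the main test. With no filter, edgeR gave a log2 fold change of 4.14 (SE 0.76, adjusted p = 9.99e-06). With the filter on, *Gfap* passed it when Female-Sham, Male-Sham, or Female-CCI was left out, at 3.32, 6.93, and 4.74. Each of these fits left 1 library in a group. *Gfap* passed the filter in them only through the CCI libraries, so these values are a description only. Even in Male-CCI, most SGCs held no *Gfap* UMI.

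**Figure D2:**
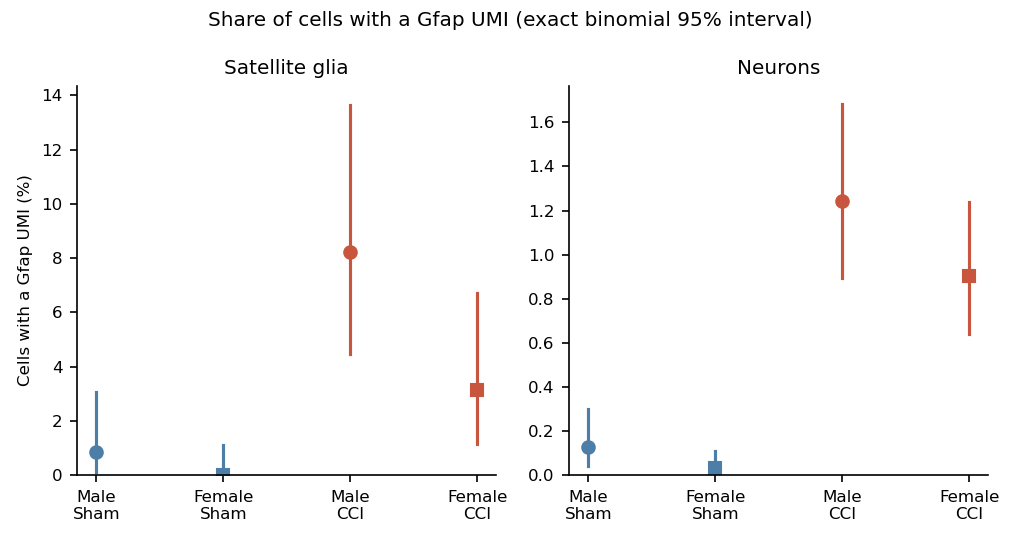
Share of SGCs (left) and of neurons (right) with at least 1 *Gfap* UMI, in percent, for each library, with exact binomial 95% intervals as vertical lines. The share is 8.23% and 3.14% in the SGCs of the CCI libraries against 0.858% and 0% in sham, and 1.24% and 0.903% against 0.128% and 0.0307% in neurons, on different y scales.

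Of a list of 24 other genes of reactive glia, 15 could be tested in SGCs and 4 were called, all higher with CCI, against 1.18% of all genes called higher. The median log2 fold change was 0.45 over the 15 tested genes and 0.00 over all genes. The list summed to 8442 and 10180.0 CPM in sham and to 10010.0 and 9850.0 CPM in CCI, and these sums overlapped. *Serpina3n*, a secreted protease inhibitor that marks reactive astrocytes, was at 120 and 161 CPM in sham and 600 and 459 CPM in CCI (log2 fold change 1.89, SE 0.17, adjusted p = 4.29e-04). *Timp1*, an inhibitor of matrix metalloproteinases, rose from 4.74 and 8.53 CPM to 23.6 and 55.5 CPM (log2 fold change 2.56, adjusted p = 0.0125). *Cd44*, a receptor for hyaluronan, and *S1pr3*, a receptor for sphingosine-1-phosphate, rose by 0.72 and 0.60 on the log2 scale. *Lcn2*, *Steap4*, and *Aspg*, which also belong to the list, had no UMI in the SGCs of any library. *Vim*, the other main glial filament, was at 4105 and 3756 CPM in sham and 5558 and 5088 CPM in CCI, a log2 fold change of 0.42 (adjusted p = 0.0134) that stayed under the limit of 0.5. In neurons 21 genes of the list were tested, with 8 called higher and 2 lower, against 15.4% and 13.0% of all genes. *Timp1* was among the higher ones there, at 2.23.

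*Glul* (chr1:153899944-153909723, plus strand) encodes glutamine synthetase, the enzyme with which glia turn glutamate into glutamine. In SGCs it was at 396 and 332 CPM in Male-Sham and Female-Sham and at 265 and 243 CPM in Male-CCI and Female-CCI. Both CCI libraries were below both sham libraries, with means of 364 ± 45.4 CPM in sham and 254 ± 15.8 CPM in CCI (SD, n = 2). The log2 fold change was -0.53 (SE 0.12, adjusted p = 0.0162), and the change was -0.58 in males and -0.45 in females. The value sat close to the limit of 0.5. The call was lost with DESeq2 (adjusted p = 0.210), without Male-Sham (-0.45, adjusted p = 0.163), without Female-CCI (-0.48), with at least 1500 genes per cell (adjusted p = 0.0516), and at marker limits of 150 and 15 (-0.20, adjusted p = 0.255). In SGCs with fewer than 10 neuron marker UMIs per 10000, *Glul* was lower, with a log2 fold change of -0.70 (adjusted p = 0.0205). The median share of mitochondrial UMIs in SGCs was 6.61% and 7.41% in sham and 8.50% and 8.47% in CCI, with no overlap. In SGCs with at most 10% mitochondrial UMIs, *Glul* was at -0.63 (adjusted p = 0.00872). The part of the mitochondrial share in the other changes in SGCs was not tested.

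*Slc1a3* (chr15:8634124-8710764, minus strand), the glutamate transporter GLAST that supplies that enzyme, was at 87.4 and 83.9 CPM in sham and at 87.7 and 107 CPM in CCI. Both CCI libraries were above both sham libraries, Male-CCI by a very small margin. The log2 fold change of 0.17 (SE 0.17) did not pass (adjusted p = 0.712). Among 10 other genes of glutamate and GABA handling, 7 could be tested and 1 was called, against 2.13% of all genes. This was *Slc1a2*, the second glial glutamate transporter (GLT-1), which rose from 24.4 and 36.3 CPM to 70.9 and 55.5 CPM (log2 fold change 1.04, SE 0.24, adjusted p = 0.0198). *Glud1*, which breaks glutamate down in mitochondria, was at 77.2 and 81.1 CPM in sham and 90.0 and 94.9 CPM in CCI and did not pass (adjusted p = 0.627).

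*Gja1* (chr10:56377330-56402513, plus strand) encodes connexin 43, the main gap junction protein of SGCs. It was at 90.8 and 112 CPM in sham and at 133 and 137 CPM in CCI, from 118 to 158 UMIs in a library. The CCI libraries were above the sham libraries, with means of 134.6 ± 2.66 and 102 ± 15.3 CPM (SD, n = 2), but the log2 fold change of 0.39 (SE 0.16) did not pass (adjusted p = 0.221). Of 7 other connexins and pannexins, only *Gjc3* and *Panx1* could be tested, and neither was called. *Gjc3*, connexin 29, was at 104, 79.6, 121, and 105 CPM, and *Gjb6*, connexin 30, had no UMI in SGCs.

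*Ednrb* (chr14:103814625-103844402, minus strand), the endothelin B receptor of glia, was at 954 and 908 CPM in sham and at 1169 and 1171 CPM in CCI. The libraries of a surgery lay close together and the surgeries did not overlap, with means of 931 ± 32.4 and 1169.9 ± 1.54 CPM (SD, n = 2). The log2 fold change was 0.31 (SE 0.10, adjusted p = 0.0886) and did not pass. At marker limits of 150 *Apoe* and 15 *Fabp7* UMIs per 10000, 1108 genes were called against 196 at the limits used here. *Gja1*, *Slc1a3*, and *Ednrb* were among those called higher there, at 0.62, 0.53, and 0.61 on the log2 scale. The rest of the tested members also moved up there against the limits used here. *Gpr37l1* was at 0.42, *Sparc* at 0.31, and *Glul* at -0.20, and *Fabp7* and *Apoe*, which chose the cells, were at 0.17 and 0.15. The shift was thus not particular to the genes called. *Gfap* (5.07), whose count was too low for the main test, is not counted among them. Of the other endothelin genes, the ligands *Edn1* and *Edn3* had no UMI in SGCs, *Edn2* had 1.07 CPM in Female-CCI and 0 in the other libraries, and *Ednra* was at 5.62 to 8.53 CPM. *Ece1*, the enzyme that activates endothelin, was at 161 and 135 CPM in sham and 178 and 176 CPM in CCI (adjusted p = 0.422).

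*Gpr37l1* (chr1:135160234-135167681, minus strand), a glial receptor for prosaposin, was at 827 and 702 CPM in sham and 940 and 776 CPM in CCI. The sham and CCI libraries overlapped, and the log2 fold change was 0.15 (SE 0.11, adjusted p = 0.569). *Sparc* (chr11:55394500-55423183, minus strand), a secreted matrix protein, was at 3378 and 3259 CPM in sham and 3764 and 3277 CPM in CCI, again with overlap (log2 fold change 0.07, SE 0.09, adjusted p = 0.800). None of the 8 tested genes among prosaposin receptors and matrix genes was called. *Psap*, which encodes prosaposin, was at 604, 661, 606, and 669 CPM. The 6 genes of potassium and water handling gave no call either, and *Kcnj10*, the potassium channel of the SGC sheath, was at 267 and 262 CPM in sham and 335 and 301 CPM in CCI (log2 fold change 0.25, adjusted p = 0.324).

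Of the 18 genes of sterol and fatty acid synthesis, all could be tested in SGCs, and 6 were called lower and 1 higher with CCI, against 0.943% and 1.18% of all genes. The other 11 were not called. *Msmo1* fell from 852 and 847 CPM to 480.3 and 472 CPM (log2 fold change -0.85, SE 0.10, adjusted p = 8.08e-05). *Idi1* fell from 695 and 713 CPM to 421 and 395 CPM, and *Fdft1* from 398 and 339 CPM to 244 and 177 CPM. These genes encode steps of the path from isoprenoids to cholesterol, as does *Lss*, and *Insig1* encodes a sensor that holds the path in check. *Lss* and *Insig1* were called lower, at -0.72 and -0.74 on the log2 scale. *Srebf1*, a transcription factor for fatty acid synthesis, was the gene that rose, from 82.7 and 83.9 CPM to 171 and 145 CPM (log2 fold change 0.91, SE 0.15, adjusted p = 0.00140). In neurons the same list of 18 gave 4 lower genes, *Dhcr7*, *Msmo1*, and *Scd1* among them, and no higher gene. Of all genes tested in neurons, 13.0% were called lower and 15.4% higher. Whether these changes differed between SGCs and neurons was not tested for the list.

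Over all genes, the calls with the largest changes and at least 20 CPM in each library of the higher group were taken. *Sprr1a*, *Nts*, *Nr1d1*, *Sox11*, and *H2-Q7* rose. Of these, *Sprr1a*, *Nts*, and *Sox11* are on the list of injured neuron genes below. The neuron marker *Snap25*, by contrast, was called lower in SGCs, at -1.29 on the log2 scale. *Nr1d1*, a repressor of the circadian clock, went from 2.71 and 2.84 CPM to 25.9 and 21.3 CPM, and *H2-Q7*, a class I histocompatibility gene, from 3.39 and 4.27 CPM to 25.9 and 23.5 CPM. *Pf4*, *Rarres1*, *Ldb2*, *Rit2*, and *Hopx* fell. *Pf4*, a chemokine of platelets and macrophages, went from 52.2 and 24.9 CPM to 0 and 1.07 CPM.

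Interferon-stimulated genes rose in part. Of 10 such genes, 9 could be tested in SGCs and 3 were called, all higher with CCI, against 1.18% of all genes called higher. *Ifitm3* rose from 823 and 1039.7 CPM to 2043 and 1615 CPM (log2 fold change 0.95, SE 0.15, adjusted p = 0.0125), *Bst2* from 88.1 and 119 CPM to 277 and 199 CPM (1.18), and *Usp18* from 1.36 and 3.56 CPM to 29.2 and 14.9 CPM (3.10). *Ifit1* was at 8.81 and 14.9 CPM in sham and at 172 and 46.9 CPM in CCI, but the spread between the CCI libraries was wide and it did not pass (adjusted p = 0.448). In neurons 6 of the 10 genes were called, all higher, against 15.4% of all genes, and *Usp18* was at 2.23 there. The 12 genes of immediate early response and dissociation gave no call in SGCs, and neither did the 7 genes of the cell cycle, of which 3 could be tested.

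Genes of injured neurons rose together with these changes in the SGCs. Of 8 such genes, 7 could be tested and 6 were called, all higher, against 1.18% of all genes called higher. *Sprr1a* was at 2.03 and 2.13 CPM in the SGCs of the sham libraries and at 92.2 and 89.6 CPM in those of the CCI libraries, against 54.4, 105, 1919.9, and 1444 CPM in neurons. The list summed to 202 and 388 CPM in sham SGCs and to 583 and 834 CPM in CCI SGCs. Of 12 neuron markers, *Snap25* alone was called, lower with CCI at -1.29 on the log2 scale, against 0.943% of all genes called lower. The part of neuronal RNA in the other changes was not tested, beyond the values for *Glul* in SGCs with little of it. No marker of repair Schwann cells, immune cells, or endothelial and mural cells was called among the 4, 7, and 1 that could be tested. Their summed levels were 1258 to 1521 CPM, 42.8 to 553 CPM, and 49.1 to 80.4 CPM. *Gdnf* and *Olig1* of the repair list had no UMI. Of 7 fibroblast markers, 4 could be tested, and *Col1a2* (0.57) and *Col3a1* (0.93) were called higher, against 1.18% of all genes. *Dpt* had no UMI and *Dcn* was at 1.36, 101, 55.1, and 4.27 CPM.

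The trace of the SGC genes in neurons was lower after CCI for *Apoe* and *Fabp7* and higher for *Glul*. Of 17536 genes tested in neurons, 4993 (28.5%) were called, 2708 (15.4%) higher and 2285 (13.0%) lower with CCI. *Gfap* passed the filter on low counts only through the CCI libraries and is not counted here. Of the other 8 members, 3 were called, 1 higher and 2 lower, a share not far from that of all genes. *Apoe* was at 1189.5 and 1348 CPM in the neurons of the sham libraries and at 744 and 850 CPM in those of the CCI libraries (log2 fold change -0.62, SE 0.09, adjusted p = 0.00164). *Fabp7* was at 305 and 345 CPM in sham and at 198 and 221 CPM in CCI (-0.58, SE 0.08, adjusted p = 0.00116). Both genes fell in both sexes and the surgeries did not overlap, but without Female-Sham *Fabp7* was at -0.48, short of the limit.

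Most members reached nearly the same small share of their SGC level in neurons, and *Glul* did not. With *Glul* and *Gfap* set aside, the level in neurons was 1.23% to 2.19% of that in SGCs of the same library for Male-Sham and 1.30% to 2.61% for Female-Sham. It was 0.834% to 1.599% for Male-CCI and 0.886% to 1.83% for Female-CCI. For *Glul* the level in neurons was 19.1% and 23.1% of that in SGCs in the sham libraries and 58.4% and 55.9% in the CCI libraries. *Gfap* in neurons was at 1.91% of its SGC level in Male-Sham and at 1.40% and 3.01% in the male and female CCI libraries, from 2, 19, and 7 UMIs in SGCs.

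**Figure D3:**
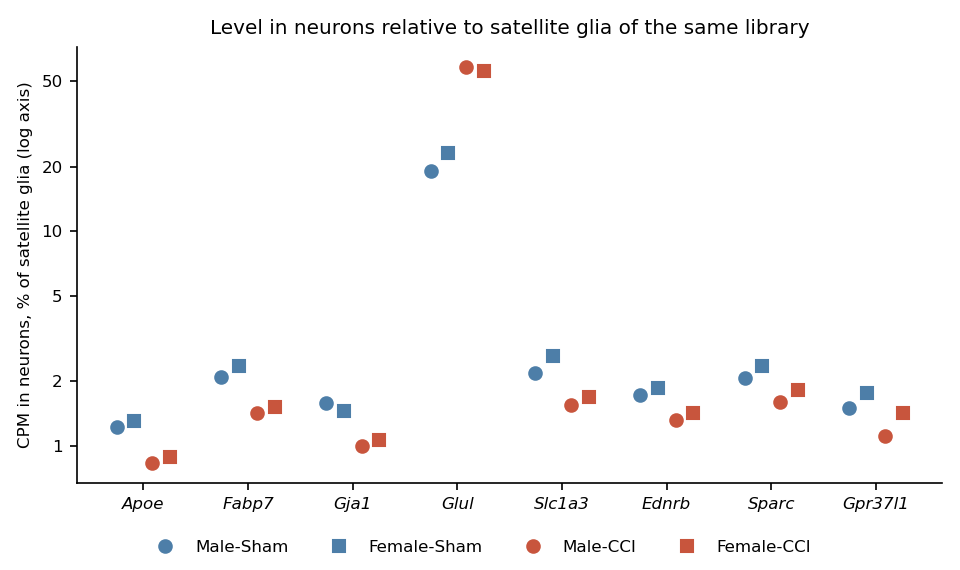
Level of 8 genes in neurons as a percent of the level in SGCs of the same library (y axis, log scale; each point 1 library, circles male, squares female, blue sham, red CCI). *Gfap* is left out because its SGC count is 0 in Female-Sham. The points of *Glul* lie at 19.1% to 58.4%, and those of the other genes between 0.834% and 2.61%.

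*Apoe* was spread unevenly over the neurons. Between 65.6% and 73.3% of the neurons of a library held under 1 *Apoe* UMI per 10000, while 14.5% and 17.4% of sham neurons and 10.4% and 11.1% of CCI neurons held 30 to 100. Neurons with at least 30 *Apoe* and 3 *Fabp7* UMIs per 10000 are called neurons with glial RNA here. They made up 716 of 3895 neurons (18.4%, exact 95% interval 17.2% to 19.6%) in Male-Sham and 21.0% in Female-Sham, against 11.8% and 12.8% in the male and female CCI libraries. The gap between the surgeries depended on the limits, since at least 1 *Fabp7* UMI was found in 39.5%, 43.8%, 40.3%, and 41.4% of the neurons. In the neurons with glial RNA *Apoe* was at 7217, 6907, 6314, and 6438 CPM, and in the other neurons at 160.5, 229, 216, and 239 CPM. Neurons with glial RNA held a median of 37741, 27649, 41944, and 34534 UMIs, below the 48292, 34804, 59428, and 45661 UMIs of the other neurons of the same library. Among the cells with the highest 15% of doublet scores were 18.7% to 26.1% of neurons with glial RNA, 11.6% to 14.1% of the other neurons, and 2.53% to 5.76% of SGCs.

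The share with glial RNA also differed by injury state. *Sprr1a*, a gene switched on in injured sensory neurons, split the neurons at a log-normalized value of 1. *Sprr1a*+ neurons were 1.82% and 3.56% of the neurons in the sham libraries and 53.7% and 51.8% in the CCI libraries. Glial RNA was found in 18.6% and 21.4% of the *Sprr1a*- neurons of sham, in 16.6% and 15.1% of those of CCI, and in 7.78% and 10.5% of the *Sprr1a*+ neurons of CCI. The *Sprr1a*+ neurons of the sham libraries, 71 and 232 cells, gave 5.63% and 8.62%. At these limits the *Sprr1a*+ neurons were below the *Sprr1a*- neurons in each of the 4 libraries. By any *Fabp7* UMI the order was the other way in each library, at 50.7%, 53.45%, 42.8%, and 45.6% of *Sprr1a*+ neurons against 39.25%, 43.45%, 37.5%, and 36.9% of *Sprr1a*- neurons. *Sprr1a*+ neurons were deeper, with medians of 68983, 44551.5, 60111.5, and 46107 UMIs against 45095.5, 32338, 51907.5, and 40381 UMIs, and the part of depth in either order was not tested.

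In *Sprr1a*- neurons, 871 of 16648 genes (5.23%) were called between CCI and sham, among them *Apoe* alone of the 8 members other than *Gfap*. *Apoe* was at 1207 and 1375 CPM in sham and at 900.2 and 932 CPM in CCI (log2 fold change -0.51, SE 0.07, adjusted p = 0.00596). *Fabp7* (-0.46) and *Sparc* (-0.45) had adjusted p-values of 0.00804 and 0.00461 but stayed under the limit of 0.5. *Gfap*, which again passed the filter only through the CCI libraries, had 5 and 2 UMIs in sham and 13 and 12 UMIs in CCI. Its rate over the libraries of each surgery was 8.45 times as high with CCI (exact 95% interval 3.55 to 23.1, counting error only). The call of *Apoe* was lost without Female-Sham (-0.41) or Male-CCI (-0.49), and it depended on how neurons were split. With *Sprr1a*- neurons defined as those with no *Sprr1a* UMI, the log2 fold change was 0.04 (adjusted p = 0.732). When *Sprr1a*+ neurons from CCI were set against *Sprr1a*- neurons from sham, 8386 of 17193 genes (48.8%) were called, and *Apoe* (-0.75), *Fabp7* (-0.72), *Glul* (1.62), and *Slc1a3* (-0.63) were among them. In that comparison TMM scaling shifted the median of all genes by 0.14 on the log2 scale against library totals, and *Gja1* went from -0.01 on library totals to 0.12 after scaling. *Slc1a3* was also lost from the calls without Female-Sham (-0.51, adjusted p = 0.0753) or Male-CCI (-0.34, adjusted p = 0.141). Without the neurons with glial RNA, *Slc1a3* was at -0.33.

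*Glul* in neurons was higher in the injured ones. In all neurons it was at 75.7 and 76.7 CPM in sham and at 155 and 136 CPM in CCI (log2 fold change 0.98, SE 0.07, adjusted p = 4.44e-05). In *Sprr1a*- neurons it was at 73.6 and 73.3 CPM in sham and at 77.0 and 72.7 CPM in CCI, with overlap between the surgeries (log2 fold change 0.01, SE 0.04, adjusted p = 0.927). In *Sprr1a*+ neurons it was at 218 and 192 CPM in CCI, and the few *Sprr1a*+ neurons of the sham libraries held 159 and 154 CPM. The log2 fold change from the *Sprr1a*- neurons of sham to the *Sprr1a*+ neurons of CCI was 1.62 (SE 0.07, adjusted p = 2.32e-07), and it was 1.65 without the neurons with glial RNA. In sham neurons *Glul* was at 92.9 and 91.7 CPM in those with glial RNA and at 72.7 and 73.7 CPM in those without it. In CCI it was at 144 and 154 CPM in neurons with glial RNA and at 156 and 134 CPM in the others.

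**Figure D4:**
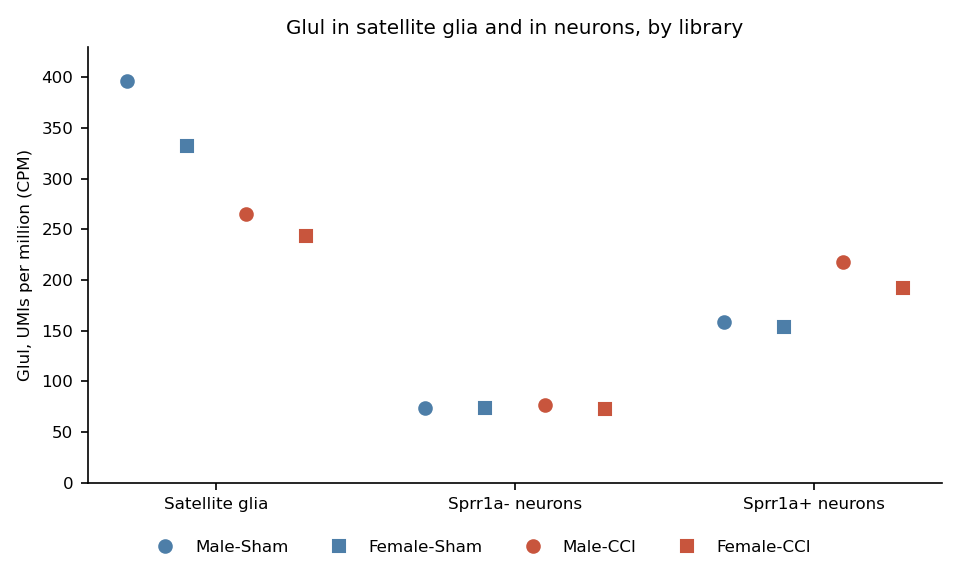
*Glul* in CPM (y axis, from 0) in SGCs, *Sprr1a*- neurons, and *Sprr1a*+ neurons of each library (circles male, squares female, blue sham, red CCI). It falls from 332 and 396 CPM to 243 and 265 CPM in SGCs, stays at 72.7 to 77.0 CPM in *Sprr1a*- neurons, and lies at 154 to 218 CPM in *Sprr1a*+ neurons.

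The effect of CCI on *Glul* differed between SGCs and neurons. In a single edgeR fit over the 8 sums with library as a block, 731 of 16827 genes (4.34%) had a different CCI effect in the 2 kinds of cells. For *Glul* the effect in SGCs minus that in neurons was -1.55 on the log2 scale (SE 0.14, adjusted p = 1.43e-22). This p-value also rests on spread shared over genes, with 4 libraries behind it. Of the other members not used to choose cells, *Gja1* (0.45, adjusted p = 0.505), *Slc1a3* (0.45, 0.538), *Ednrb* (0.28, 0.187), *Sparc* (0.26, 0.160), *Gpr37l1* (0.26, 0.286), and *Gfap* (0.46, adjusted p = 1) did not pass. The SE of *Gfap* was 2.03, so its effects in the 2 kinds of cells could not be compared at this depth.

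*Gfap* was found in neurons at 5 and 2 UMIs in the sham libraries and at 57 and 42 UMIs in the CCI libraries, or 0.0259, 0.00866, 0.298, and 0.225 CPM. The surgeries did not overlap, and the rate over the libraries of each surgery was 15.9 times as high with CCI (exact 95% interval 7.43 to 40.5, counting error only). With no filter on low counts, edgeR gave a log2 fold change of 3.96 (adjusted p = 5.15e-06) for *Gfap* in all neurons. In neurons with glial RNA the CCI libraries had 25 and 19 *Gfap* UMIs at 1.51 and 1.03 CPM, and in the other neurons 32 and 23 UMIs at 0.183 and 0.137 CPM. A *Gfap* UMI was found in 0.128%, 0.0307%, 1.24%, and 0.903% of neurons, which held more UMIs than SGCs. Thinned to 2000 UMIs, between 0% and 0.151% of the neurons of a library held a *Gfap* UMI, against 0% to 3.82% of SGCs.

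None of the remaining members was called over all neurons. *Ednrb* was at 16.4, 16.9, 15.4, and 16.7 CPM (log2 fold change -0.00, adjusted p = 0.963), and *Sparc* at 70.0, 76.6, 60.2, and 59.9 CPM, a log2 fold change of -0.24 (adjusted p = 0.00890) under the limit of 0.5. *Gpr37l1*, *Gja1*, and *Slc1a3* were at -0.15, -0.10, and -0.32. The neurons without glial RNA were chosen by *Apoe* and *Fabp7*, whose level in neurons differed between the surgeries, so their values are a description with no test. There *Ednrb* was at 3.55 and 4.47 CPM in sham and at 7.04 and 7.61 CPM in CCI, and *Sparc* at 16.9 and 20.9 CPM in sham and at 29.4 and 26.1 CPM in CCI. *Apoe* itself went from a log2 fold change of -0.62 over all neurons to 0.27 in that set, *Fabp7* from -0.58 to 0.03, *Gpr37l1* to 0.63, and *Gja1* to 0.66. The limits of *Apoe* and *Fabp7* are set per 10000 UMIs, and in each sex the median CCI neuron held more UMIs than the median sham neuron. The part of that difference in depth was not tested.

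**Figure D5:**
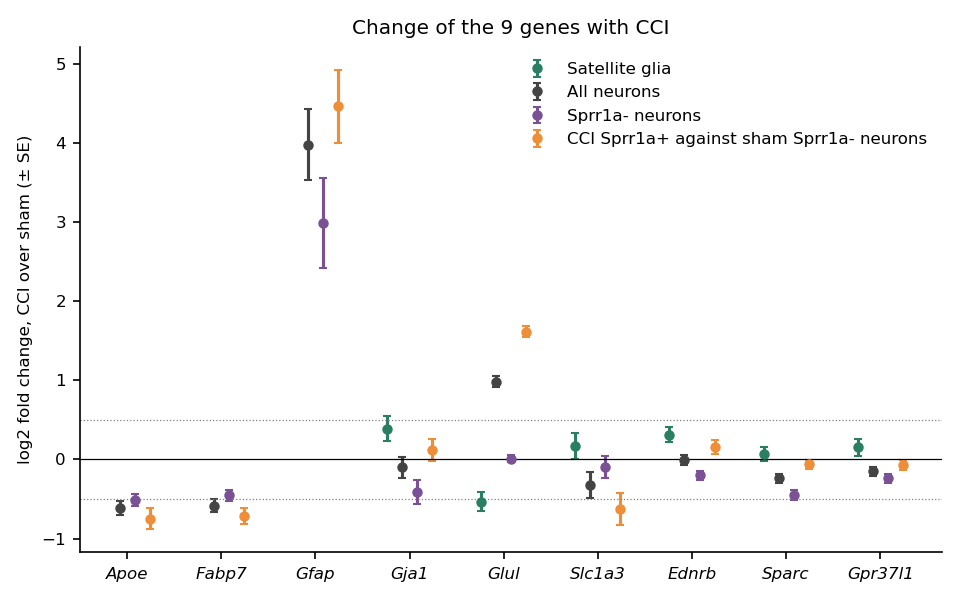
log2 fold change of each gene with CCI (y axis, ± SE, edgeR) in SGCs, in all neurons, in *Sprr1a*- neurons, and in CCI *Sprr1a*+ against sham *Sprr1a*- neurons. *Apoe* and *Fabp7* have no SGC point because they chose the SGCs, and *Gfap* has none because its count was too low for the main test. Dotted lines mark the limit of 0.5. *Glul* lies at -0.53 in SGCs, at 0.98 in all neurons, and at 0.01 in *Sprr1a*- neurons. *Gfap* is drawn in the 3 comparisons of neurons, where it passed the filter on low counts only through the CCI libraries. Its points are not to be ranked against those of the other genes.

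Across 12 sets of cells, SGCs, *Sprr1a*- neurons, and *Sprr1a*+ neurons of each library, the 9 members were compared with each gene by their mean log2(CPM + 5). The genes whose pattern was most like that mean were *Kcnj10* (Pearson r = 0.9997), *Sema3b* (0.9996), *Rarres2* (0.9996), *Gpm6b* (0.9994), and *Lair1* (0.9993). Among the members, r ranged from 0.995 to 0.9997 for all but *Glul* (0.755) and *Gfap* (0.676). The 12 sets come from 4 libraries and mainly separate SGCs from neurons, so these values are a description. *Kcnj10* was at 262 to 335 CPM in SGCs and 4.48 to 5.75 CPM in neurons, a ratio like that of most members.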

How the data were processed

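GFP+ cells of L4-5 DRGs were profiled by 10x Genomics Chromium 3′ v3 scRNA-seq in 4 libraries. The authors deposited UMI count matrices, made with Cell Ranger on mm10 (version 2.1.1 in the submitters' processing notes, 3.0.2 in the matrix header), filtered to cells and not normalized. From these raw counts, cells were chosen by UMIs per 10000 as stated, UMIs were summed per library, and sums were tested with edgeR 4.0.16 (TMM, filterByExpr, robust quasi-likelihood) in R 4.3.3, 2 CCI against 2 sham libraries, with Benjamini-Hochberg adjustment. CPM scales the UMIs of a gene by all UMIs of the summed cells. Libraries, not cells, were the replicates, and intervals and floors cover counting error only.

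The members, lists, and limits were chosen with earlier results of these data known. Genes were named as all 9 members, up to 4 called genes of each list with the largest change and the same direction in both sexes, up to 5 higher and 5 lower called genes over all genes in SGCs, and the 5 genes most correlated with the members. Other genes of a list, such as *Vim* and *Ifit1*, and called genes past the first 4 were named after their values were seen. Single values of some list genes are not reported here. The alternatives tried were leaving out each library, DESeq2 1.42.0, sex as a block, no low-count filter, other limits for cells, removal of the 15% of cells with the highest Scrublet scores (scanpy 1.11.5), and thinning to 2000 UMIs. Leaving out cells that met both rules, barcodes shared between libraries, and neurons with glial RNA from the *Sprr1a* comparisons was added after seeing the data. The test was checked on simulated counts. Sequences came from RefSeq (GRCm38.p6) and gene positions from GENCODE vM21 (GRCm38).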

Additional observations from a re-analysis of the deposited data

Results flagged for a closer look

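The effect of CCI on *Glul* differed between SGCs and neurons. The effect in SGCs minus that in neurons was -1.55 on the log2 scale (SE 0.14, adjusted p = 1.43e-22 by edgeR), with a lower level in SGCs and a higher level in neurons in both sexes. That test is of the difference and not of a fall in SGCs, where the call was lost under several alternatives, DESeq2 among them. In *Sprr1a*- neurons *Glul* was at 0.01 on the log2 scale (adjusted p = 0.927 by edgeR).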

How the results depend on the processing

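In all, 50 counts of called genes, 386 changes of members, and 24 shares were recomputed under alternatives. Of the counts, 40 stayed within 1.5-fold of the main count, and 331 of the changes kept their direction and their side of the limits. Of the 24 shares, 3 stayed within their interval and 21 moved. The calls in SGCs numbered 45 with DESeq2, 409 with no filter, 1108 at marker limits of 150 and 15, 426 without the highest doublet scores, 109 in cells with little neuronal RNA, 114 after thinning, and 199 to 485 when 1 library was left out, with the highest count without Female-CCI. With sex as a replicate block they numbered 427. The replicate numbers mark only sex, and the deviations of libraries of the same sex correlated at 0.00751 in SGCs and 0.318 in neurons over genes. The block left each call of a member in place, with *Glul* in SGCs at -0.53 (adjusted p = 5.06e-04). The calls in *Sprr1a*- neurons numbered 409 to 758 with 1 library left out, lowest without Female-CCI. DESeq2 called 285 differences between SGCs and neurons.

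*Glul* in SGCs was not called with DESeq2 (-0.53), with at least 1500 genes (-0.51), or at those limits (-0.20), and ranged from -0.62 to -0.45 with 1 library left out. In *Sprr1a*- neurons *Apoe* ranged from -0.62 to -0.41 and *Gfap* from 2.39 to 3.83 with 1 library left out. *Fabp7* in neurons ranged from -0.68 to -0.48. *Slc1a3* in *Sprr1a*+ against *Sprr1a*- neurons ranged from -0.97 to -0.34, and was at -0.47 with any *Sprr1a* UMI as the limit and -0.33 without neurons with glial RNA. The causes were not tested.

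With any *Sprr1a* UMI as the limit, the changes in *Sprr1a*- neurons reversed for *Apoe* (0.040), *Fabp7* (0.054), *Ednrb* (0.29), *Gja1* (0.0395), *Glul* (-0.12), *Gpr37l1* (0.29), *Slc1a3* (0.15), and *Sparc* (0.021), and those of *Sprr1a*+ neurons for *Ednrb* (-0.058) and *Gja1* (-0.15). Without neurons with glial RNA, *Ednrb* (0.91), *Gja1* (0.66), *Gpr37l1* (0.63), and *Sparc* (0.60) reversed in all neurons, and *Gpr37l1* (1.23) and *Sparc* (1.23) in *Sprr1a*+ neurons. *Apoe* and *Fabp7*, which chose the neurons left out and were not tested there, went to 0.27 and 0.030 in all neurons and to 0.78 and 0.46 in *Sprr1a*+ against *Sprr1a*- neurons. Small values that changed sign were those of *Ednrb* in neurons with DESeq2 (0.0059), without cells that met both rules (0.0021), and at a neuron limit of 50 (0.014), of *Gja1* in neurons without the highest doublet scores (0.017), of *Glul* in *Sprr1a*- neurons with no filter (-0.013), and in SGCs of *Gpr37l1* (-0.020) and *Slc1a3* (-0.030) after thinning and of *Sparc* at marker limits of 600 and 60 (-0.050).

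With 1 library left out, small changes crossed 0, from -0.063 to 0.056 for *Ednrb* and -0.19 to 0.011 for *Gja1* in neurons, from -0.032 to 0.044 for *Glul* and -0.21 to 0.017 for *Slc1a3* in *Sprr1a*- neurons, from -0.021 to 0.16 for *Sparc* in SGCs, and from -0.14 to 0.018 for *Sparc* in *Sprr1a*+ neurons. The values past 0 in the other cases were 0.035 for *Ednrb*, -0.0041 for *Glul*, and 0.0035 for *Slc1a3*.

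With sham before CCI and male before female, SGCs were 6.10%, 5.38%, 4.80%, and 3.596% of cells at limits of 150 and 15, and 3.88%, 3.41%, 2.96%, and 2.27% at limits of 600 and 60. With at least 1500 genes they were 2.23% in Female-Sham and 2.18% in Female-CCI. Neurons with glial RNA were 10.9%, 11.4%, 5.24%, and 5.80% at limits of 60 *Apoe* and 6 *Fabp7* UMIs per 10000 and 39.5%, 43.8%, 40.3%, and 41.4% by any *Fabp7* UMI. Without the highest doublet scores they were 16.3% in Male-Sham and 10.3% and 11.7% in the male and female CCI libraries. The depth of 888964 to 1475898 UMIs over the SGCs of a library limited *Gfap* most.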
